A study of Mus musculus with 8 samples.

Results

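The 46 genes described here encode proteins of the G2 phase and of mitosis, and they were taken from a fixed list of symbols, each matched to its mouse Ensembl identifier, among the 27318 genes of the count tables. They were followed in single bone marrow cells of mice with a GFP reporter of Dach1, whose protein is a nuclear transcription cofactor, across ranks of forward scatter, of the surface proteins CD48, Sca1, cKit, CD135 and CD150, and of Dach1-GFP. All cells belong to 1 group: LSK cells, a marrow gate set on Sca1 and cKit that contains stem cells and early progenitors, profiled by CEL-seq2, which counts the 3′ ends of polyadenylated RNA per cell. All of them carry the Dach1bio-GFP locus, in which a biotin tag precedes the stop codon in exon 12 and an IRES-GFP follows it, made from 1 targeted C57BL/6 embryonic stem cell clone. Whether the mice carried 1 or 2 copies of it, their sex and how many were used were not stated in the labels, and the age of 8 to 16 weeks is stated for all mouse lines of the study together. Marrow was enriched for cKit on magnetic beads before single cells were sorted into 384-well plates.

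Cells that divide make these transcripts in a wave that starts late in S phase, peaks as Cdk1 with its cyclins drives entry into mitosis, and ends when the anaphase-promoting complex marks the cyclins and the genes' own protein products for destruction. In the marrow, most long-term stem cells rest outside the cycle, while multipotent progenitors divide more often, so the wave marks cycling cells among stem cells and progenitors. Many genes of the wave are kept off in resting cells by the DREAM complex, which sits on a promoter element called CHR (cell cycle genes homology region), and are switched on in G2 through B-MYB, FOXM1 and the same MuvB core, often together with NF-Y bound to CCAAT boxes.

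There were 8 plates, 4 with names in LC (replicates 1 to 4) and 4 with names in LCE (replicates 5 to 8). Of 2987 wells with counts and a sort record, 2712 cells were kept, 335 to 340 per plate, with 2091816 to 5192543 counts per plate. Forward scatter, the light a cell throws forward in the sorter, which rises with its size, and CD48, a surface protein that most long-term stem cells lack, were recorded on the LCE plates alone. The labels do not say which animals filled a plate, so plates served as replicates, and the spread among them may be technical. The tests estimate this spread with information shared across genes. A p-value thus does not measure a gene's own spread among its plates alone. Of the genes of the 2 gate proteins, Kit was detected in 79.8% of cells and Ly6a, the gene of Sca1, in 36.8%. Of the other stem and progenitor markers, Cd34 was detected in 88.1%, Hlf in 78.0%, Flt3 in 67.1% and Mecom in 23.4%. Of the T and NK cell markers, Cd3e had no count in any cell, Cd3g, Cd8a and Ncr1 had 1, 3 and 2 counts, Klrb1c had 11 (0.406% of cells) and Cd4 had 87 (2.58%). B lineage markers reached 3 or more counts in 248 cells, which were kept and are given beside the results.

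Promoter sequences were looked up for the members because they share the wave, and the 5 below belong to the members with the smallest adjusted p by forward scatter among those with an entry. RefSeq held a promoter for 39 of the 46 (assembly GRCm38.p6), each spanning 250 bases before the gene's start to 50 after it. Each line gives the 250 bases before the start, 5′ to 3′ in the direction of the gene. Capitals mark the letters TTTGAA or TTCGAA (the core of the CHR) and CCAAT, on either strand, so that TTCAAA and ATTGG are the same motifs read on the other strand.

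Hmgb2 (chr8:57511593-57511842, plus strand): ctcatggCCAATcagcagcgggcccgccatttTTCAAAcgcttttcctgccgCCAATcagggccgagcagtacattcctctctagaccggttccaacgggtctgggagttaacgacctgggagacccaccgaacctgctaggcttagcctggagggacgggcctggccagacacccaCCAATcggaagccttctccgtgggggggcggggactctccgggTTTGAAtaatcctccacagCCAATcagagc
Top2a (chr11:99024190-99024439, minus strand): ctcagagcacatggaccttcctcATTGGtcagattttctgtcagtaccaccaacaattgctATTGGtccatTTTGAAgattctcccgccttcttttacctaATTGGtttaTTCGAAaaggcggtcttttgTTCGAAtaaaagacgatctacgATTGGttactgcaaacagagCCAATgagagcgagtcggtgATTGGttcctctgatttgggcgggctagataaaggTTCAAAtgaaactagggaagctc
Ube2c (chr2:164769679-164769928, plus strand): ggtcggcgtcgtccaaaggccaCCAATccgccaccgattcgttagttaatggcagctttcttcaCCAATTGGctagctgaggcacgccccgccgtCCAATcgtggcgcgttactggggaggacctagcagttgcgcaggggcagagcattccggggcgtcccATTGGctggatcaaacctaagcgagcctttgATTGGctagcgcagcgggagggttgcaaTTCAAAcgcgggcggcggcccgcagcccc
Cks2 (chr13:51644982-51645231, plus strand): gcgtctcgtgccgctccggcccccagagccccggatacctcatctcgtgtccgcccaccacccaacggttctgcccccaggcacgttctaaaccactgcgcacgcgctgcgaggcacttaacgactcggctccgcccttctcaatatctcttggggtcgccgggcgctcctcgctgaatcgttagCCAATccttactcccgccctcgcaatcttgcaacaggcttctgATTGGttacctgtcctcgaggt
Cdk1 (chr10:69352913-69353162, minus strand): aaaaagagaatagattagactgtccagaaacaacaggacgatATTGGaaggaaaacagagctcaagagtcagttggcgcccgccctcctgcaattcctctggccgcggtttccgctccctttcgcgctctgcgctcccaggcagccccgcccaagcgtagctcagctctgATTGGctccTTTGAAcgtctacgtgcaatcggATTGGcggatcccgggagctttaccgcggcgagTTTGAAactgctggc

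In the printed stretches no CHR match touched a CCAAT match, and the only overlap was between CCAAT on the 2 strands in Ube2c, where CCAATTGG reads as both. The CHR letters stood at -218 and -30 relative to the start of Hmgb2, at -29 in Ube2c, and at -71 and -15 in Cdk1. The window of Top2a held 4 matches of the CHR letters and 6 of CCAAT. In Cks2 the CHR letters were not found in this window, while CCAAT was. Over the 300-base windows, the CHR letters were present in 32 of 39 members (82.1%) and in 19.4% of 27025 promoters in the table. CCAAT was present in 82.1% of the members and in 37.9% of all promoters, and both motifs together in 71.8% and 7.70%. A match is a run of letters, not a shown binding site. The log2 difference by forward scatter had a median of 1.40 in the 31 tested members with the CHR letters (0.59 to 2.01) and of 1.55 in the 6 without (0.94 to 1.85), so the ranges overlapped. The members named without a promoter were Aurkb, Ccna2, Cdc25c, Kif20a, Pimreg, Smc4 and Tpx2.

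The 46 members held 93512 counts, 0.333% of all counts. The fewest counts were those of Cdc25c, the phosphatase that activates Cdk1, with 300 counts in 7.08% of cells. The most were those of Top2a, the topoisomerase that untangles sister DNA, with 10968 counts in 75.3% of cells. Counts were concentrated in few cells: the decile of cells with the most member counts held 42.4% of them, and 5 cells had none. This decile was taken over the cells of all plates together, without a correction for depth or plate set. 20 or more members were detected in 34.6% of LC cells and 9.54% of LCE cells. Members rose and fell together from cell to cell, with a median Pearson correlation of 0.18 over the 1035 pairs (0.03 to 0.39), averaged over the 8 plates. The pair with the highest value was Cenpa, the centromeric histone, with Ube2c, the ubiquitin-conjugating enzyme of the anaphase-promoting complex, at 0.39. Ube2c also had the highest mean correlation with the other members, 0.27. These correlations are descriptions over the cells of each plate, which share library and depth.

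All 46 members had a higher mean level on the LC than on the LCE plates, with a median ratio of 1.87 and no overlap between the 8 plates for 38. How many of all genes differed in this way was not counted, so these numbers are not particular to the members. Levels are given in CPM, the counts of a gene scaled to a common total per plate or arm. The ratio was lowest for Hmgb2, a chromatin protein abundant in dividing cells, at 310 ± 21.7 CPM on LC and 278 ± 18.7 on LCE plates (SD, n = 4 each). The ratio was highest for Prc1, which bundles the midzone of the spindle, at 84.6 ± 2.88 against 30.1 ± 6.40 CPM. Median counts per cell were 11586 to 13398 on LC and 5627 to 7525 on LCE plates. Lengths of the cell barcode (8 bases) and of the molecule tag (6 bases) are stated for the LCE plates alone. Spike-ins held 3.27% to 4.37% of counts on LC plates and 0 on LCE plates. Such differences between the sets and the members' level cannot be told apart. All comparisons below were therefore made within plates.

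Cells of the highest tercile of forward scatter carried more of nearly every G2 and mitosis transcript than cells of the lowest tercile of the same plate. All 43 members that could be tested rose, with a median log2 difference of 1.49, a 2.81-fold difference in share of counts, while the median over 8936 genes was -0.02. For a test, counts were summed per plate and tercile and compared with edgeR's quasi-likelihood test with the plate as a block, at an adjusted p under 0.05 over all genes. By this rule 11.2% of all genes were called higher with forward scatter, and 18.2% were called in either direction. Cdc25c, Nek2 and Prr11 had too few counts for the test, and a filter on low counts favours genes with high counts in 1 arm, so the fit was repeated on every gene with a count: 44 of 46 members then rose, with 5.69% of all genes called higher.

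Hmgb2, which gave the smallest adjusted p, stood at 117, 98.4, 161 and 132 CPM in the low arm of replicates 5, 6, 7 and 8 and at 411, 469, 467 and 444 CPM in the high arm. Every high value lay far above every low value, and the log2 difference was 1.87 ± 0.09 (SE, edgeR adjusted p = 6.84e-44). Top2a stood at 186.7, 179.6, 99.8 and 188.3 CPM in the low arm and 413, 415, 321 and 349 CPM in the high arm. The arms did not overlap, although replicate 7 was the lowest plate in both, and the log2 difference was 1.25 ± 0.09 (edgeR adjusted p = 1.98e-27).

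Ube2c was at 47.1, 22.4, 16.3 and 14.6 CPM in the low arm and 106, 88.8, 74.6 and 99.6 CPM in the high arm. Replicate 5 was high in both arms, and again no low value reached a high one (log2 difference 1.88 ± 0.19, edgeR adjusted p = 4.43e-16). Cks2, a small protein that docks Cdk1 on its targets, was at 33.4, 22.4, 18.1 and 20.1 against 88.1, 79.1, 58.6 and 109 CPM (log2 difference 1.85 ± 0.19). Cdk1, the kinase that starts mitosis, was at 39.5, 38.0, 43.5 and 47.5 against 129, 111, 102 and 105 CPM (log2 difference 1.47 ± 0.16). Both genes were separated between the arms, and the 4 low values of Cdk1 were within 10 CPM of each other. Aurkb, the kinase that corrects faulty attachments of chromosomes to the spindle, was at 6.07, 10.4, 5.44 and 16.5 in the low arm and 57.5, 54.0, 39.4 and 54.7 CPM in the high arm (log2 difference 2.49 ± 0.27, edgeR adjusted p = 4.28e-14).

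**Figure D1:**
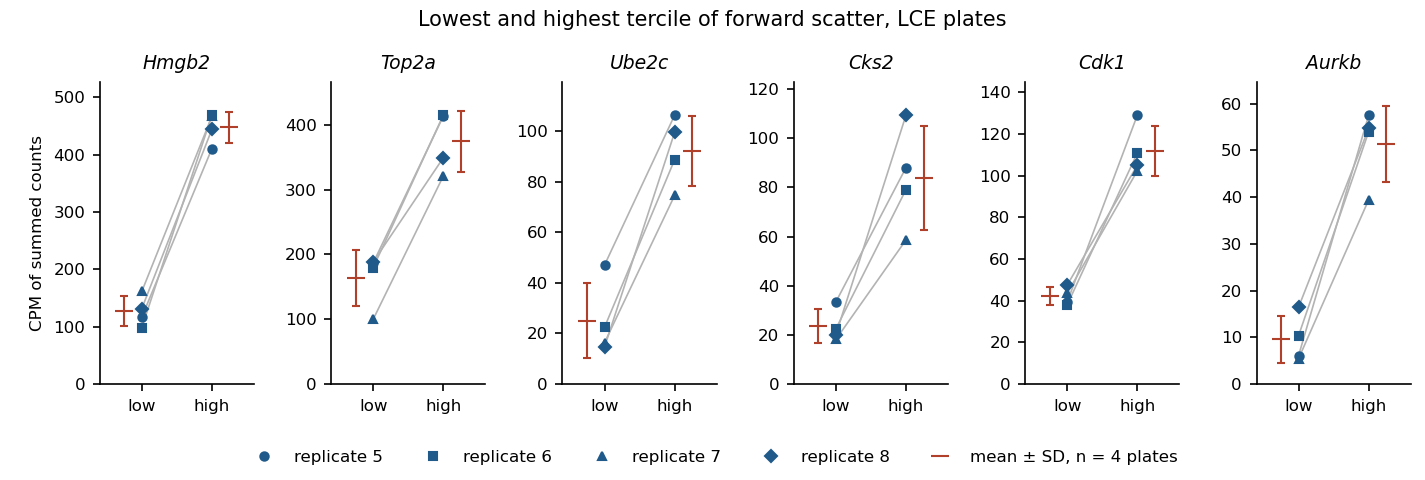
CPM (vertical axis) of 6 members in the lowest and highest tercile of forward scatter (horizontal axis), 1 symbol per LCE plate joined by a line, with the mean ± SD over 4 plates in red. For all 6 genes the lowest high-arm plate lies above the highest low-arm plate; Hmgb2 reaches at most 161 CPM in the low arm and at least 411 CPM in the high arm.

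By role, the forward scatter differences had their widest range among the spindle proteins and kinesins. Kif20a, a kinesin of the central spindle, had the highest difference of all members: 4.55, 0, 3.63 and 7.31 CPM in the low arm and 21.8, 29.9, 26.6 and 33.9 CPM in the high arm, a log2 difference of 2.85 ± 0.40 (edgeR adjusted p = 2.12e-09). Kif20b, a relative of it that also acts in cytokinesis, had the lowest, 0.59 ± 0.19. Kif11, which pushes spindle poles apart, rose by 2.01 ± 0.23 and Kif2c, which shortens microtubules at the kinetochore, by 1.95 ± 0.41 on the log2 scale. Among the cyclins and Cdk1 partners, 5 of 5 tested members rose by between 1.26 (Ccnb2) and 1.85 (Cks2).

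The mitotic kinases and checkpoint genes rose by a median of 1.58, from Aurka, the kinase of the spindle poles, at 0.88 ± 0.32 (edgeR adjusted p = 0.0381) to Bub1, a checkpoint kinase, at 1.86 ± 0.42. The chromosomal passengers Aurkb, Birc5 and Cdca8, which form 1 complex, rose by 2.49, 1.56 and 1.67. Of the ubiquitin ligase partners, Cdc20, which activates the anaphase-promoting complex, and Ube2c rose by 1.88 each, and Cdca3 by 1.51. Cytokinesis genes (Anln, Ect2, Prc1, Racgap1) had a median of 1.50. Pimreg rose by 2.20 ± 0.34.

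The smaller differences included those of several abundant members. The condensin subunits Smc2 and Smc4, which fold chromosomes, rose by 0.63 ± 0.12 and 0.65 ± 0.09, and Mki67, the Ki-67 antigen that coats mitotic chromosomes, by 0.99 ± 0.11. The kinetochore genes Cenpe and Cenpf rose by 0.94 and 0.98. The arms did not overlap on the 4 plates for 31 of the 43 members. The share of all genes without such overlap was not counted, so this number has no background beside it. Leaving out each plate in turn kept 40 of the 43 calls; Aurka lost it whichever plate was left out (adjusted p = 0.051 to 0.157), Hmmr without replicate 6 (0.084), and Kif20b without replicate 5 (0.066) or 7 (0.195).

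The course along forward scatter was not even. Over quintiles of within-plate rank, the summed level of the 46 members was 1435, 1317, 1354 and 1751 CPM in the first 4 quintiles and 4036 ± 489 CPM (SD, n = 4) in the highest. The highest quintile held 36.7% to 44.6% of the sum over quintiles, and each of the 46 members had its highest mean there. From the fourth to the highest quintile the median member rose 2.43-fold (1.56 to 6.96), and from the lowest to the fourth 1.20-fold. Hmgb2 went from 137 CPM in the lowest quintile to 213 in the fourth and 556 in the highest, and Aurkb from 9.61 to 23.0 and 65.4 CPM. No test was made on quintiles.

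**Figure D2:**
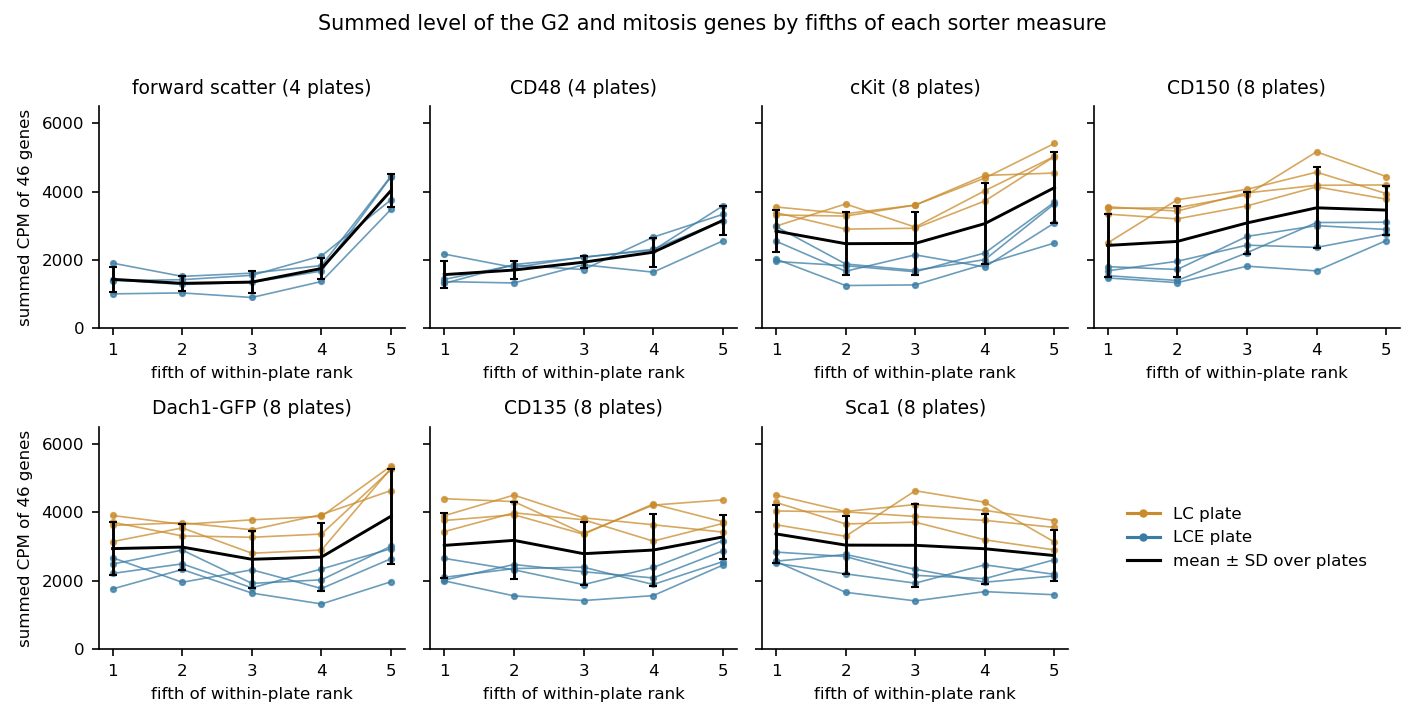
Summed CPM of the 46 members (vertical axis) over quintiles of within-plate rank (horizontal axis, 1 lowest) for 7 sorter measures; coloured lines are plates and black lines the mean ± SD. Forward scatter stays between 1317 and 1751 CPM up to the fourth quintile and reaches 4036 CPM in the highest. The means of CD135 and Sca1 over all plates stay between 2734 and 3368 CPM. For CD135 the last quintile is the highest on 4 of 4 LCE plates and on no LC plate, which was not tested.

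Other cell cycle genes were tested beside the members. Of 63 further mitosis genes, 50 were tested and 41 rose with forward scatter (median 1.21), led by Mxd3 (2.86), a Myc network repressor, Ccnf (1.91), Espl1 (1.88), the separase that cuts cohesin, and Pbk (1.84). Of the S phase genes 25 of 29 rose (median 0.95), with Tk1 (1.60) and Tyms (1.57), enzymes of thymidine supply, among the highest. Of 16 genes of the anaphase-promoting complex, its subunits with the activator Fzr1 and the ubiquitin-conjugating enzyme Ube2s, 2 rose (median 0.15), Ube2s by 0.65 and the subunit Anapc11 by 0.51. Of 9 cohesin genes Pds5a rose by 0.37 and Nipbl, the loader, fell by 0.54. Of 11 tested DREAM and MuvB genes 5 rose, led by the activator Foxm1 (1.47) and the MuvB subunit Lin9 (1.25). The direction of these lists was known from earlier results of these data, and the values are descriptions.

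Several other measures moved with forward scatter. The median counts per cell were 5069 ± 638 in the low arm and 8834 ± 1165 in the high arm (SD, n = 4), and mitochondrial counts were 4.53% and 3.84%. The 11 B lineage markers summed to 278 to 421 CPM in the low and 151 to 383 CPM in the high arm, with 58 and 44 cells at 3 or more B lineage counts, and 5 of 9 tested fell. The 11 neutrophil and monocyte markers summed to 461 to 758 and 515 to 1081 CPM, and 3 of 5 tested rose: Ctsg by 1.32, Elane by 1.29 and Mpo by 0.80. The 6 stem and progenitor markers summed to 1440 to 1472 CPM in the low arm and 1017 to 1139 CPM in the high arm without overlap, and 5 fell, Hlf by 0.74 the most. Of the erythroid markers 2 of 5 rose, Hba-a2 by 1.26 and Hba-a1 by 1.09. The part of these markers in the members' result was not tested, other than by leaving out B lineage cells. T and NK markers stayed at or below 13.5 CPM in sum, with Cd3e at 0. With each cell thinned to 3000 counts, 21 of 23 members still testable rose (7.77% of all genes called higher), and without the B lineage cells 41 of 41 (10.3%). In summed counts, more cells in G2 or mitosis and more RNA per such cell cannot be told apart. Cell by cell, 10 or more members were detected in 8.37% ± 6.92% of cells in the low arm. In the high arm it was 53.0% ± 9.60% (mean ± SD over plates, n = 4). These shares were not corrected for counts per cell and were not tested.

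Of the surface proteins, CD48 and, on the same 4 LCE plates, CD150 had medians of 0.94 and 0.95 over 42 members each. Of 42 tested members 34 rose with CD48 (7.04% of all genes were called higher, 11.4% in either direction), with 42 of 42 above 0. Pimreg had the highest difference, with 4.93, 13.3, 0 and 8.88 CPM in the low arm and 27.9, 37.4, 21.7 and 19.1 CPM in the high arm (2.02 ± 0.35, edgeR adjusted p = 2.76e-05). Its arms did not overlap, and 1 low plate had no count. Hmgb2 was at 187.5, 153, 209 and 156 against 361, 421, 397 and 349 CPM. Kif20a rose by 1.45 ± 0.34, Cdca5 (sororin, which protects cohesion) by 1.43 ± 0.29 and Aurkb by 1.35 ± 0.24. Ect2 and Racgap1, which together call the contractile ring, rose by 1.30 ± 0.31 and 1.20 ± 0.23, Kif11 by 1.24 ± 0.21 and Bub1b by 1.18 ± 0.31.

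Aurka (0.49), Bub1 (0.39), Aspm (0.60), Knstrn (0.57), Kif20b (0.34), Kif4 (0.55), Cenpa (0.42) and Cenpe (0.38) were also positive by CD48 but did not pass. Over quintiles of CD48 the summed level was 1572, 1706, 1935, 2227 and 3157 CPM, and 43 of 46 members were highest in the last. Cells in the high CD48 arm had 8184 counts at the median against 5251, and 54 of them were B lineage cells against 21. Other cell type markers moved with CD48 too. Of the neutrophil and monocyte markers 4 of 5 rose, Ctsg by 1.72 and Mpo by 1.23. Of the stem and progenitor markers 4 of 6 fell, Mecom by 1.26 and Hlf by 1.18, and of the erythroid markers 4 of 5 fell, Hba-a1 by 2.21 the most. Their part in the members' result was not tested. The Spearman correlation of CD48 rank with forward scatter rank was 0.33 to 0.54 over the 4 plates. DESeq2 called 10 of the 42 (1.77% of all genes called higher), and leaving out each plate in turn kept 24 of the 34 calls; Ect2 (adjusted p = 0.109) and Bub1b (0.0771) lost theirs without replicate 8, Bub1b also without replicate 6 (0.0551).

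cKit, the receptor for stem cell factor, was recorded on all 8 plates. With it 40 of 46 members rose, by a smaller median of 0.58, while 1.9% of all genes were called higher and 3.76% in either direction. All 46 differences were above 0. Ube2c led: its low arm ran from 33.1 to 77.4 CPM over the 8 plates (median 61.3) and its high arm from 62.2 to 178 CPM (median 116). The ranges overlapped across plates, while within each plate the high arm was above the low, on 8 of 8 (1.02 ± 0.10, edgeR adjusted p = 4.75e-10). The other members with the highest differences were Nek2, which splits centrosomes (0.997 ± 0.254), the chromokinesin Kif4 (0.97 ± 0.18), the spindle proteins Nusap1 (0.92 ± 0.12), Aspm (0.85 ± 0.14) and Gas2l3 (0.82 ± 0.15), Bub1b (0.83 ± 0.15) and Cdc20 (0.77 ± 0.15).

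Cdc25c, Aurka, Knstrn, Prr11, Cenpe and Anln did not pass with cKit. The S phase genes gave other numbers than the members: 2 of 30 rose, Tk1 by 0.54 and Rrm1 by 0.41, with a list median of 0.07, and of the further mitosis genes 23 of 59 rose (median 0.42). The difference between the lists was not tested. The summed level of the members was 2845, 2477, 2485, 3064 and 4115 CPM over quintiles, lowest in the middle of the range, and all 46 had their highest mean in the last. Median counts per cell were 8728 in the low arm and 10611 in the high arm. B lineage cells numbered 108 and 94, and their markers summed to 27.2 to 865 CPM in the low and 27.4 to 206 CPM in the high arm; without those cells 41 of 46 members rose (2.26% of all genes called higher). Of the neutrophil and monocyte markers 4 of 5 fell, Elane by 1.24 the most, Pf4 and Itga2b of the megakaryocyte markers rose, by 1.48 and 0.61, and of 7 erythroid markers 1 rose and 3 fell; their part was not tested. Leaving out each plate in turn kept 28 of the 40 calls, and of the members named with values Nek2 lost it, without replicate 2 (adjusted p = 0.0842). On LC plates alone 24 members rose (0.936% of all genes called higher) and on LCE plates alone 10 of 42 (1.83%). The plate set interaction with cKit called no member (edgeR), against 0.124% of all genes. At an unadjusted p under 0.05 it had 5 of 46 members. Here and below, shares of all genes are at the adjusted p. Counts of members at an unadjusted p have no such share beside them.

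**Figure D3:**
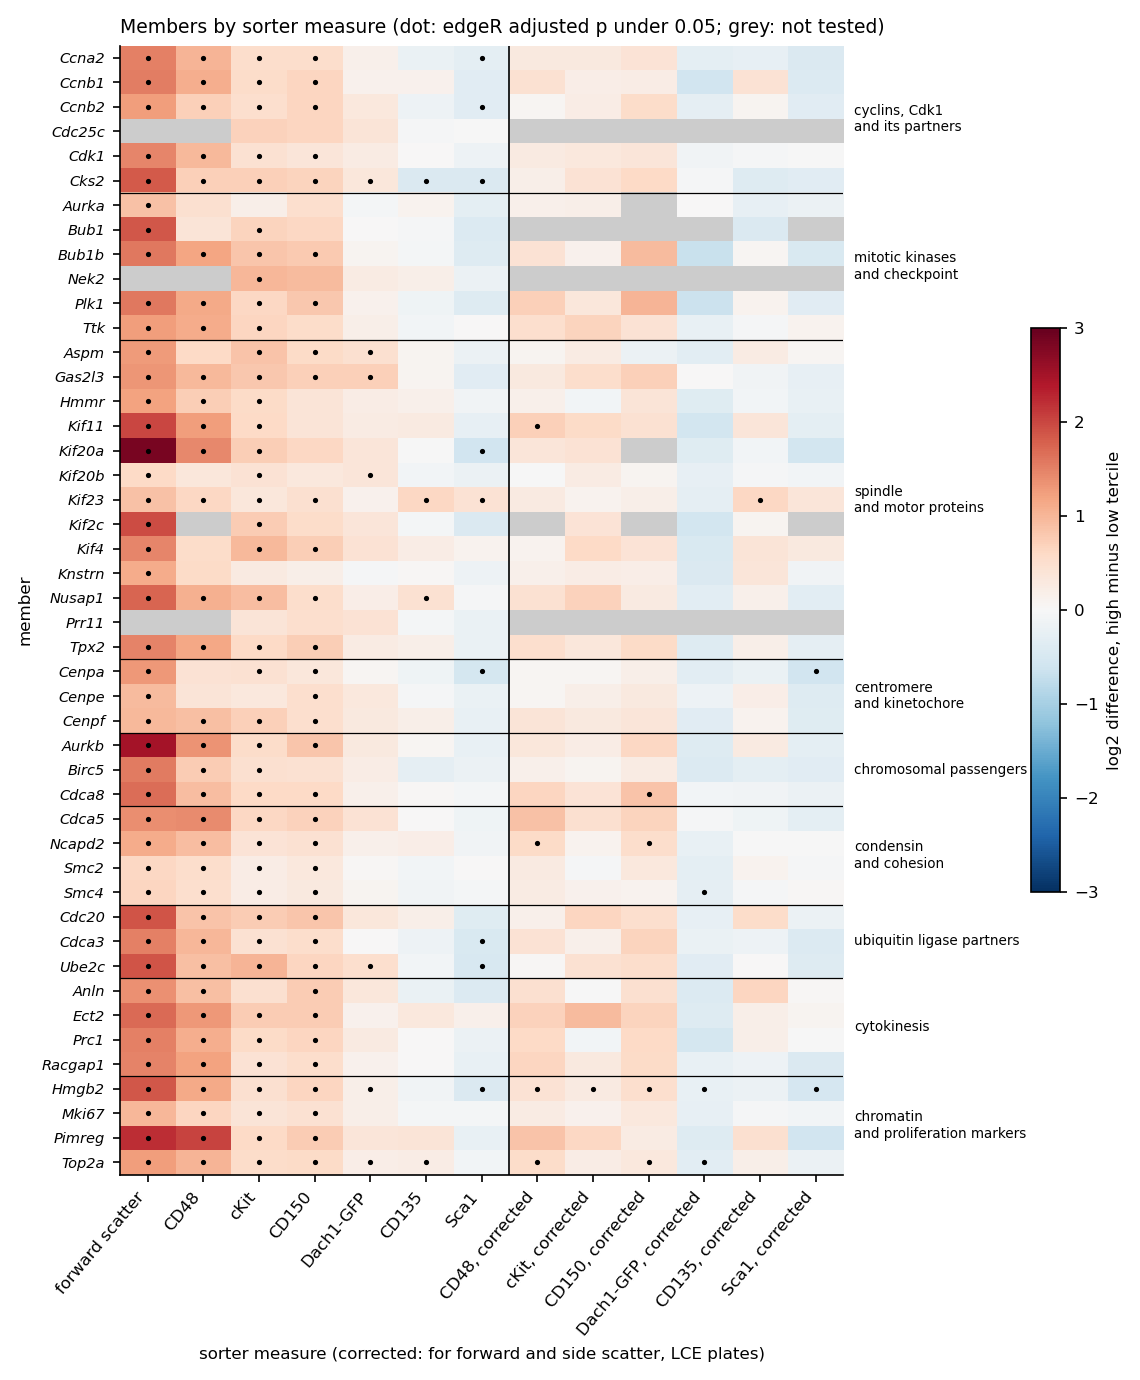
The log2 difference between the highest and lowest tercile (colour scale) for each of the 46 members (rows, by role) and 13 comparisons (columns); dots mark an edgeR adjusted p under 0.05 and grey cells were not tested. Forward scatter has 43 dots, CD48 34, cKit 40 and CD150 33, and no column corrected for scatter has more than 4.

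CD150 is a SLAM family receptor found on long-term stem cells and on precursors of megakaryocytes and red cells. With it 33 of 46 members rose (1.55% of all genes were called higher, 2.11% in either direction), with a median of 0.58 and all 46 differences above 0. Hmgb2 ran from 121 to 305 CPM in the low arm (median 236) and from 308 to 395 CPM in the high arm (median 356), with no overlap over 8 plates. Aurkb had the highest difference of the members called (0.83 ± 0.14, edgeR adjusted p = 0.000401), with 8.57 to 54.8 CPM in the low and 26.8 to 83.9 CPM in the high arm, and was higher on 8 of 8 plates. Cdc20 (0.82 ± 0.17) and Plk1, the kinase that matures spindle poles (0.82 ± 0.16), followed. Bub1b (0.79), the ring proteins Anln and Ect2 (0.76 each), Pimreg (0.75) and Tpx2, the activator of Aurka (0.75), were next.

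Cdc25c, Aurka, Nek2, Bub1, Ttk, Hmmr, Knstrn, Kif11, Kif20b, Kif2c, Kif20a, Prr11 and Birc5 did not pass with CD150; Nek2 was at 0.95 (edgeR adjusted p = 0.0592). Over quintiles of CD150 the summed level was 2426, 2543, 3083, 3526 and 3459 CPM over all plates, but the plate sets differed at the top. On LC plates it was 4514 CPM in the fourth and 4089 in the last quintile, with 3 of 4 plates highest in the fourth. On LCE plates it was 2537 and 2829 CPM, with 3 of 4 plates highest in the last. This difference was not tested. Median counts per cell were 8627 in the low arm and 9594 in the high arm. B lineage cells numbered 47 and 124 in the arms, and megakaryocyte markers summed to 38.1 to 81.4 and 44.6 to 201 CPM. Pf4 and Itga2b rose by 1.65 and 0.70, of 7 erythroid markers 2 rose and 4 fell, and 3 of 6 stem and progenitor markers fell; their part was not tested. Leaving out each plate in turn kept 19 of the 33 calls; of the members named with values, Bub1b lost it without replicate 3, 5 or 8 (adjusted p = 0.055 to 0.0606) and Pimreg without replicate 1, 2, 7 or 8 (0.0515 to 0.0845), while Aurkb, Cdc20, Plk1, Anln, Ect2 and Tpx2 kept it.

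The CD150 difference was wider on the LCE than on the LC plates. On LCE plates alone 32 of 42 members rose (median 0.95; 3.59% of all genes were called higher), and on LC plates alone 6 of 46 (median 0.43; 0.56%). The interaction of plate set with CD150 itself was above 0 for 41 of 46 members and passed for 3 of them, against 0.635% of all genes called, 0.49% as higher on LCE plates. For Hmgb2 the difference was 0.37 on LC and 1.01 on LCE plates (interaction 0.64 ± 0.14, edgeR adjusted p = 0.00936). Its low arms were at 242, 288, 305 and 238 CPM on LC plates and 167, 121, 204 and 233 CPM on LCE plates, while the high arms were alike, 321 to 358 and 308 to 395 CPM. Top2a (0.39 and 0.86, adjusted p = 0.0439) and Kif11 (0.10 and 1.12, adjusted p = 0.0467) had the same sign. Without the B lineage cells no member passed the interaction (edgeR), against 0.511% of all genes called at the adjusted p. At an unadjusted p under 0.05 it had 16 of 45 members, a count without a share of all genes beside it.

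**Figure D4:**
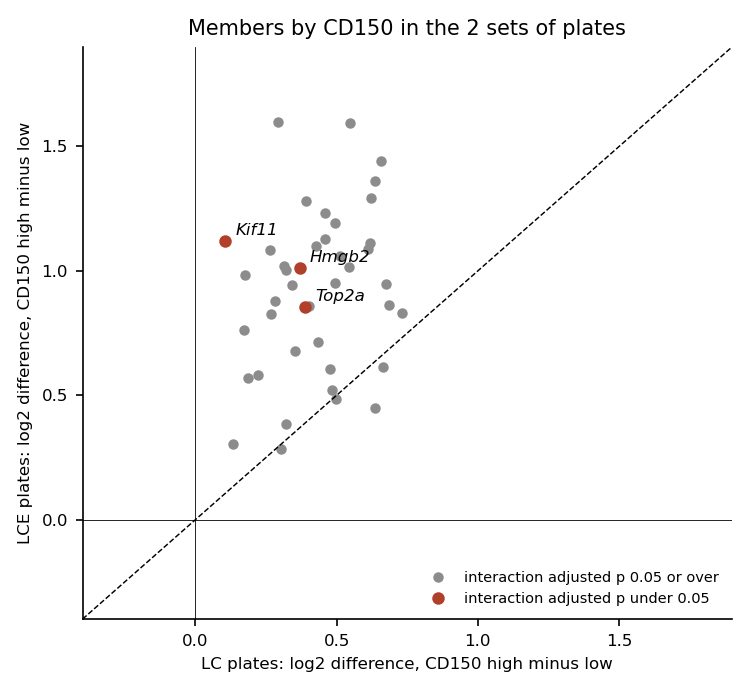
Log2 difference by CD150 on LC plates (horizontal axis) against LCE plates (vertical axis) for the 42 members tested in both; the dashed line marks equal values and red points an interaction with an adjusted p under 0.05. 38 of the 42 points lie above the line, and Kif11, Hmgb2 and Top2a are marked.

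Dach1-GFP, the reporter, moved few members. 7 of 46 rose (3.94% of all genes were called higher, 7.77% in either direction), with a median of 0.23. Gas2l3, which links actin and microtubules in division, had the highest difference, 0.72 ± 0.16 (edgeR adjusted p = 0.000818). Its low arm ran from 17.05 to 29.1 CPM and its high arm from 10.7 to 60.6 CPM, and it was higher in 6 of 8 plates, so the arms overlapped. Ube2c rose by 0.50 ± 0.10, Aspm by 0.48 ± 0.15, Kif20b by 0.36 ± 0.11, Cks2 by 0.34 ± 0.09, Top2a by 0.20 ± 0.05 and Hmgb2 by 0.17 ± 0.05. None of the 7 was higher in the high arm on all 8 plates.

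Over quintiles of GFP the summed level was 2938, 2983, 2626, 2692 and 3887 CPM over all plates. The last quintile was the highest on 4 of 4 LC plates, at a mean of 5134 CPM against 3594 in the first, and on 2 of 4 LCE plates, at 2640 against 2282 CPM; in replicate 7 the second and in replicate 8 the first was highest. On LC plates alone 11 members passed (2.12% of all genes called higher) and on LCE plates alone none of 41 did (edgeR; 1 at an unadjusted p under 0.05; 5.57% of all genes called), with medians of 0.29 and -0.007. The interaction called no member (edgeR), against 0.126% of all genes called at the adjusted p. At an unadjusted p under 0.05 it had 10 of 46 members, a count without a share of all genes beside it. B lineage cells numbered 163 in the low arm and 42 in the high arm, and without them 11 of 45 members rose with a median of 0.30 (3.73% of all genes called higher). Pf4 and Itga2b rose by 1.96 and 1.77 with GFP, 5 of 6 erythroid markers fell, and of the stem and progenitor markers 3 rose and 2 fell; their part was not tested. Of the 7 calls, those of Aspm, Kif20b, Top2a and Hmgb2 were each lost without some single plate, Top2a without replicate 4 (adjusted p = 0.165) and Hmgb2 without replicate 3, 4 or 6 (0.065 to 0.143). Aspm was lost without any of replicates 1 to 5 (0.0521 to 0.229) and Kif20b without replicate 1, 2 or 3 (0.0583 to 0.117). Single plates also moved the count: it was 4 without replicate 3 or 4 and 12 without replicate 7, and DESeq2 called 1 (2.05% of all genes called higher).

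CD135, the receptor for the FLT3 ligand carried by multipotent and lymphoid-primed progenitors, gave a median of 0.007. 3 of 46 members rose and 1 fell with it, while 5.98% of all genes were called higher and 5.07% lower. The interaction of plate set with CD135 called 1 of 46 members (edgeR), given at the end of this paragraph. On LCE plates alone the median over 41 members was 0.21, with 35 above 0 and 6 below. There the summed level was highest in the last quintile on 4 of 4 plates, at a mean of 2763 CPM against 2191 in the first. On LC plates these means were 3795 and 3873 CPM, and no plate was highest in the last. This difference in summed level was not tested. Kif23, the motor of the central spindle that works with Racgap1, ran from 34.5 to 62.3 CPM in the low (median 44.8) and from 56.0 to 106 CPM in the high arm (median 65.8). It was higher on 8 of 8 plates by 0.62 ± 0.12 (edgeR adjusted p = 0.000121). Nusap1 rose by 0.45 ± 0.12 and Top2a by 0.23 ± 0.05, while Cks2 fell by 0.43 ± 0.10 and was lower on 6 of 8 plates. Nusap1 lost its call without replicate 4 (adjusted p = 0.0549). B lineage cells numbered 132 in the low arm and 61 in the high arm, and other markers moved with CD135. Of the neutrophil and monocyte markers 4 of 5 fell, Elane by 2.22 and Mpo by 1.15, of the erythroid markers 5 of 6 fell, Car1 by 2.97 the most, and Pf4 fell by 2.23. Their part in the members' values was not tested. Anln, a scaffold of the contractile ring, had a difference of -0.63 on LC and 0.76 on LCE plates, and the interaction of 1.39 ± 0.35 passed (edgeR adjusted p = 0.0363; 0.655% of all genes called, 0.337% as higher on LCE plates).

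Sca1 went the other way for a few members. 8 of 46 fell and 1 rose with it (6.23% of all genes were called lower and 5.71% higher), with a median of -0.21 and 41 of 46 below 0. Hmgb2 fell on 8 of 8 plates without overlap, from 295 to 374 CPM in the low arm (median 341) to 192 to 288 CPM in the high arm (median 258), by 0.42 ± 0.05 on the log2 scale (edgeR adjusted p = 1.52e-08). Cenpa fell by 0.52 ± 0.10, Ube2c by 0.49 ± 0.10, Cdca3, which helps to destroy an inhibitor of Cdk1, by 0.46 ± 0.12 and Cks2 by 0.44 ± 0.10. Kif20a (-0.57), Ccnb2 (-0.33) and Ccna2 (-0.30) also passed, but lost the call without some single plates, Kif20a without replicate 1, 3 or 7 (adjusted p = 0.0844 to 0.141). Kif23 again rose, by 0.44 ± 0.11, a call it lost without replicate 4 (adjusted p = 0.0625). B lineage cells numbered 133 in the low arm and 42 in the high arm, and without them 5 members fell and 1 rose (5.44% of all genes called lower and 5.43% higher). Of the neutrophil and monocyte markers 4 of 5 fell, of the erythroid markers 5 of 7 fell, and 6 of 6 stem and progenitor markers rose; their part was not tested. Median counts per cell were 10563 and 8462. The interaction with plate set called no member (edgeR; 1 of 46 at an unadjusted p under 0.05; 0.118% of all genes called).

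The ranks of CD48, cKit, CD150, CD135 and Dach1-GFP rose with forward scatter, with Spearman correlations from 0.12 to 0.54 over the LCE plates, while that of Sca1 was between -0.10 and -0.01. The LCE fluorescence ranks were also corrected for scatter: the residual of a linear fit on the ranks of forward and side scatter replaced the rank. The differences then shrank for the proteins that had risen most, and few members passed. With corrected CD48 4 of 41 rose (2.81% of all genes were called higher, 4.78% in either direction): Kif11 (0.72 ± 0.21), the condensin subunit Ncapd2 (0.57 ± 0.13), Top2a (0.55 ± 0.08) and Hmgb2 (0.44 ± 0.08). Hmgb2 was at 255, 195, 268 and 241 CPM in the low arm and 334, 330, 320 and 291 CPM in the high arm, with no overlap. Kif11 lost its call without replicate 6 or 8 (adjusted p = 0.29 and 0.203) and Ncapd2 without replicate 5 (0.064).

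With corrected CD150 4 of 39 rose (1.08% of all genes called higher, 1.5% in either direction): Cdca8 (0.87 ± 0.23), Ncapd2 (0.53 ± 0.14), Hmgb2 (0.50 ± 0.08) and Top2a (0.31 ± 0.09). Hmgb2 kept its call without each plate, while without replicate 5 or 6 it was the only member left; DESeq2 called no gene at all in this comparison (0% of genes), with 4 members at an unadjusted p under 0.05. With corrected cKit Hmgb2 alone of 42 rose (0.27 ± 0.08, edgeR adjusted p = 0.0326; 1.05% of all genes called higher, 2.38% in either direction), and not without replicate 5 or 6 (adjusted p = 0.383 and 0.696). With corrected CD135 Kif23 alone of 43 rose (0.61 ± 0.17; 2.77% of all genes called higher, 4.57% in either direction), from 46.7, 43.8, 39.0 and 34.6 to 59.8, 66.6, 54.2 and 70.4 CPM without overlap. It was not called without replicate 6 or 8 (adjusted p = 0.0643 and 0.234).

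With corrected Sca1, Hmgb2 fell by 0.50 ± 0.08 and Cenpa by 0.58 ± 0.16 (2 of 41; 1.56% of all genes called lower, 2.74% in either direction), and Cenpa lost its call without replicate 5 or 6 (adjusted p = 0.173 and 0.179). With Dach1-GFP as recorded on the same LCE plates, 22 of 41 members were below 0 (median -0.007). After correction 40 of 42 tested members were below 0 (median -0.31), and Top2a (-0.32 ± 0.08), Smc4 (-0.27 ± 0.09) and Hmgb2 (-0.23 ± 0.07) passed as lower, against 3.02% of all genes called lower and 5.5% in either direction. Top2a was at 317, 333, 286 and 294 CPM in the low arm and 292, 275, 169 and 249 CPM in the high arm, lower on each plate with arms that overlapped. None of the 3 passed without replicate 7 (Top2a -0.22, adjusted p = 0.151), and DESeq2 called none of the 42, with 2 at an unadjusted p under 0.05 (1.53% of all genes called). On the LCE plates the summed level over quintiles was 2282, 2417, 1917, 1865 and 2640 CPM as recorded and 2969, 2088, 1800, 2062 and 2259 CPM after correction.

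How much scatter the correction removed was checked on the cells of each arm. In the high CD48 arm 39.6% of cells came from the highest forward scatter quintile of their plate as recorded, 26.3% after the linear correction and 19.9% when terciles were taken within 10 bins of forward scatter. The low CD48 arm had 6.46%, 13.8% and 20.5%. For CD150 the shares in the high and low arms were 31.2% and 7.80% as recorded and 22.8% and 13.8% after the linear correction. For cKit they were 34.7% and 11.1%, then 26.5% and 15.8%. The linear correction thus left the arms of CD48, CD150 and cKit unequal in their largest cells, and those of Dach1-GFP nearly equal (22.1% and 21.8%).

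Within the bins the members' differences by CD48, cKit and CD150 came down further. For the 41 members tested in every version, the median by CD48 was 0.94 as recorded, 0.35 after the linear correction and 0.07 within bins (27 above 0). For cKit it was 0.43, 0.26 and 0.03, and for CD150, over 39 members, 0.94, 0.43 and 0.07. No member passed within bins for CD48, cKit or CD150 (edgeR; 2 of 42, 2 of 42 and 1 of 42 at an unadjusted p under 0.05), while 2.32%, 2.03% and 0.283% of all genes did. For Dach1-GFP the median stayed at -0.31 with all 41 below 0, and 4 passed as lower: Cenpa (-0.47), Mki67 (-0.33), Top2a (-0.31) and Hmgb2 (-0.24), against 3.14% of all genes called lower. The B lineage cells, 84 in the low arm and 24 in the high arm of corrected GFP, moved with this result: without them no member passed in the linear version (edgeR; 4 of 40 at an unadjusted p under 0.05; median -0.15; 3.93% of all genes called), nor within bins (0 of 41 at an unadjusted p under 0.05; median -0.14; 3.66%). For corrected cKit, with 63 B lineage cells in the low arm and 40 in the high arm, the median also moved upward without them. It went from 0.26 (1 of 42 members called higher) to 0.60. 10 of 39 members then rose (0.913% of all genes called higher), Ube2c by 1.11, Nusap1 by 1.14 and Ect2 by 1.41 among them. Within bins and without those cells, 1 of 39 rose with cKit, with a median of 0.27 (0.251% of all genes called higher). The fits within bins that leave out the B lineage cells were added after the data had been seen.

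**Figure D5:**
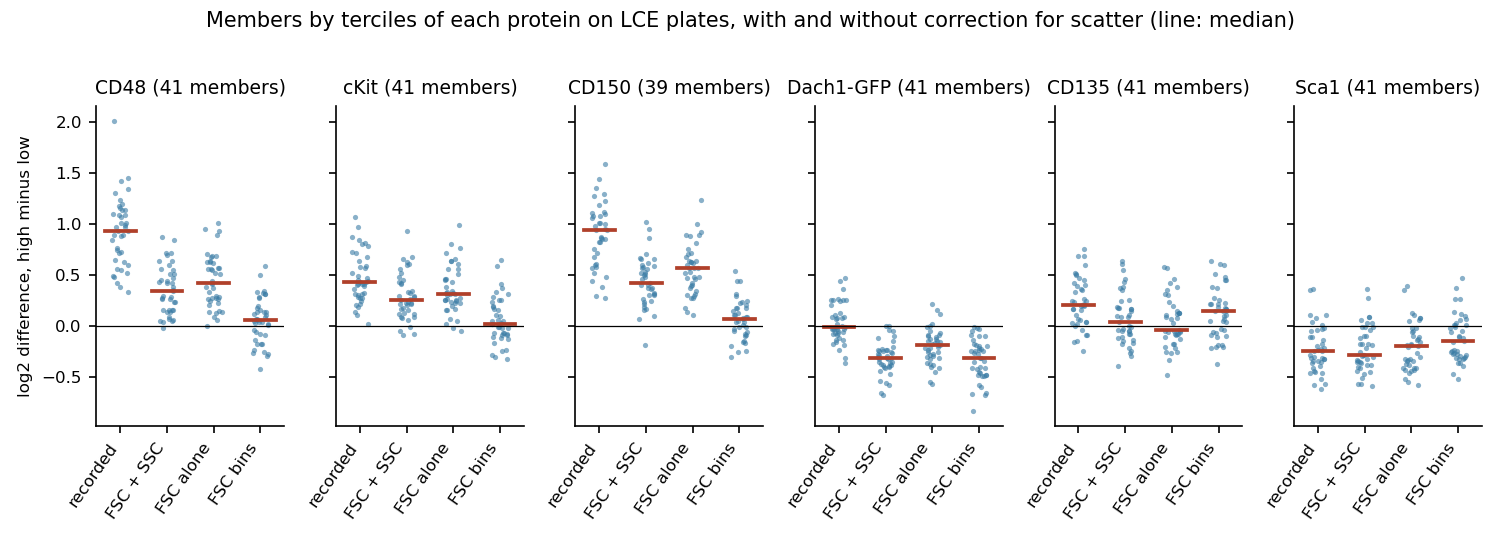
Log2 difference of each member (points; vertical axis) between the highest and lowest tercile of 6 proteins on the LCE plates, as recorded, after the linear correction on forward and side scatter (FSC + SSC), on forward scatter alone, and for terciles within bins of forward scatter; red lines are medians. The CD48 median falls from 0.94 to 0.07 and the CD150 median from 0.94 to 0.07, while the Dach1-GFP median goes from -0.007 to -0.31.

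Splitting each LCE plate at the medians of forward scatter and of 1 protein gave the summed level of the 46 members in 4 cell groups, with no test. Among small cells CD150 made little difference, 1303 ± 241 CPM in CD150-low and 1390 ± 276 CPM in CD150-high cells (SD, n = 4). Among large cells they were at 2187 ± 246 and 3181 ± 569 CPM. CD48 had the same shape, with 1323 and 1366 CPM in small and 2198 and 3086 CPM in large cells, and so had cKit, with 1328 and 1361 against 2530 and 3033 CPM. The split did not match forward scatter among the large cells. In terciles of CD150, 31.2% of the high arm and 7.80% of the low arm lay in the highest forward scatter quintile. Within bins of forward scatter the members' median log2 differences were 0.07 for CD150, 0.07 for CD48 and 0.03 for cKit. For Dach1-GFP the large cells were at 3044 ± 91.5 CPM where GFP was low and at 2668 ± 545 CPM where it was high, ranges of 2948 to 3156 and 1873 to 3043 CPM that overlapped. For CD135 the small cells were at 1458 CPM where CD135 was low and at 1208 CPM where it was high, and the large cells at 2648 and 3020 CPM. In each of these splits the large cells, whatever the protein, had a mean above both groups of small cells.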

How the data were processed

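The authors deposited gene counts per cell for 8 CEL-seq2 plates, as whole-number counts per the file headers and values, and sorter records with fluorescence and scatter as intensity values, deposited per well. The aligner and counter: not given in the sources used here. Per the submitters' processing notes the build was GRCh38, which is human, while the tables list mouse Ensembl genes; 27249 of 27318 matched a symbol, and no coordinate of the tables was used.

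Counts and sort records were joined by well. On LCE plates they were joined through the primer barcode: of 1500 records, 9 had no listed barcode and 20 carried the barcode of another well. Wells with at least 1000 counts, at least 500 genes and under 20% mitochondrial counts were kept. Spike-ins (3.27% to 4.37% of counts on LC plates, 0 on LCE plates) were left out. Each well received 1 sorted cell, so no doublet caller was run. Within each plate, cells were ranked by each intensity, and counts of the lowest and highest tercile were summed. edgeR 4.0.16 (R 4.3.3) tested high minus low with its filter on low counts, TMM scaling, plate as a block and Benjamini-Hochberg adjustment over all genes at 0.05. SE is the log2 difference divided by the root of F. Both arms come from the same plate, and their deviations from the arm means correlated on each plate (0.16 to 0.56). DESeq2 1.42.0 was an alternative, beside no filter, no block, thinning to 3000 counts, splits at the median, each plate left out, plate sets alone, B lineage cells left out and other scatter corrections.

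On simulated counts for forward scatter (8936 genes), 33% of genes changed by 0.5 (log2) and 88% changed by 1 were recovered, and for cKit (10447 genes) 70% and 100%. False calls were 5.47% and 2.86% of the calls. The changed genes were drawn only from those above a minimum mean count, and the spread was set beforehand, not taken from the data. These shares therefore do not cover members with few counts. Per comparison, up to 8 members with the largest difference past the threshold are named, with plate values for those with the smallest p by forward scatter; other members singled out were chosen after their values were seen. The members and lists were chosen with earlier results of these data known. Python 3.11.15, pandas 2.3.3, numpy 2.4.6, scipy 1.17.1 and matplotlib 3.10.9 were used.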

Additional observations from a re-analysis of the deposited data

Results flagged for a closer look

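In 132 groups of 4 or 8 plates, 5 members had 1 plate far from the others, while chance alone gives about 1 in 20 groups. Ect2 in the high CD48 arm was at 43.9 CPM in replicate 8, with the nearest plate at 19.8. Racgap1 in the same arm was at 32.5 CPM in replicate 6, the nearest being 42.2. Pimreg in the low CD150 arm was at 1.71 CPM in replicate 7, the nearest being 13.1. After the linear scatter correction, Kif11 was at 29.6 CPM in the high CD48 arm of replicate 7 (nearest 47.1), and Cdca8 at 35.4 CPM in the low CD150 arm of replicate 8 (nearest 18.6).

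Of 230 tests of a difference between the plate sets, 4 passed (edgeR adjusted p under 0.05). By CD150, the LCE difference exceeded the LC difference by 1.01 for Kif11, 0.64 for Hmgb2 and 0.47 for Top2a on the log2 scale. By CD135, it did so by 1.39 for Anln.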

How the results depend on the processing

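Of 2382 alternative values of members called, 1759 kept direction and side of the threshold, 619 lost the call and 4 changed sign. Of 5013 values of members not called, 79 gained a call and 448 changed sign while staying uncalled. The 4 were, by Dach1-GFP on LCE plates alone, Aspm (-0.029) and Top2a (-0.0054), and Hmgb2 by cKit within bins of forward scatter (-0.0058) and by Dach1-GFP within bins without B lineage cells (0.00091, added after seeing the data). The counts of members called moved as follows, in the order CD48, Sca1, cKit, CD135, CD150, Dach1-GFP where all are given. Without the plate block they were 18, 0, 0, 1, 0 and 0, and 0 for all 6 corrected comparisons, while forward scatter kept 38. With thinned cells, where fewer genes could be tested, they were 12 of 19, 2 of 29, 13 of 28, 1 of 29, 6 of 27 and 2 of 29, with forward scatter at 21 of 23. Unthinned they were 34 of 42, 9 of 46, 40 of 46, 4 of 46, 33 of 46 and 7 of 46, with forward scatter at 43 of 43. The share called among tested members thus fell as well. The 1 by CD135 was lower, where 3 of 4 had been higher. Corrected, thinned cells gave 2, 1, 0, 0, 1 and 0. DESeq2 called 10 by CD48, 5 by Sca1, 21 by cKit, 16 by CD150 and 1 by Dach1-GFP; corrected, it called 2 by CD48 and 0 by the other 5. LCE plates alone gave 2 by Sca1, 10 by cKit, 2 by CD135 and 0 by Dach1-GFP; LC plates alone gave 24 by cKit, 6 by CD150 and 11 by Dach1-GFP. Splits at the median gave 2 by Dach1-GFP and, corrected, 1 by Sca1, 4 by cKit, 0 by CD135 and 2 by CD150. Without B lineage cells Dach1-GFP had 11 and, corrected, Sca1 1, cKit 10, CD135 2 and Dach1-GFP 0. Corrected on forward scatter alone, cKit had 6, CD150 10 and Dach1-GFP 0; with no filter, corrected Dach1-GFP had 1. Within bins CD48, cKit and CD150 had 0 and Sca1 1; within bins without B lineage cells CD48, Sca1, CD150 and Dach1-GFP had 0 and CD135 2. The plate set interaction by CD135 fell from 1 to 0 with thinned cells and with median splits, and that by CD150 from 3 to 1, 1 and, without B lineage cells, 0. The cause of these moves was not tested, and the share of all genes called is given in the Results for some of these alternatives only.

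Leaving out each plate gave 41 to 42 members by forward scatter, 27 to 33 by CD48, 6 to 11 by Sca1, 34 to 38 by cKit, 3 to 5 by CD135, 22 to 32 by CD150 and 4 to 12 by Dach1-GFP. Corrected, the ranges were 3 to 5 for CD48, 1 to 2 for Sca1 (1 without replicate 5 or 6), 0 to 1 for cKit (0 without replicate 5 or 6), 0 to 1 for CD135 (0 without replicate 6 or 8), 1 to 5 for CD150 (1 without replicate 5 or 6) and 0 to 3 for Dach1-GFP (0 without replicate 7, 1 without replicate 8). Depth limits the rarest members: Cdc25c, Nek2 and Prr11 could not be tested by forward scatter.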
